A study of Homo sapiens with 11 samples.

Results

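Endothelin-1 and angiotensin II are peptides that constrict vessels and drive growth of heart muscle cells, and 7 genes of the systems that make and sense them were followed through a long culture of human stem cell-derived cardiomyocytes. The 7 genes were chosen by name, with earlier results of these data known. All of them were found among the 19990 genes of the count table. They are the endothelin-1 precursor gene EDN1, the endothelin-converting enzyme gene ECE1, the receptor genes EDNRA and EDNRB, the angiotensinogen gene AGT, the angiotensin-converting enzyme gene ACE and the angiotensin II receptor gene AGTR1. The cells came from WTC11 (an established line of human induced pluripotent stem cells) at passage 63. They were differentiated with the GSK3 inhibitor CHIR99021 and the Wnt secretion inhibitor IWP2 and then kept in B27 medium with insulin. The poly(A) RNA-seq libraries numbered 4 for Day 30, 3 for Day 60 and 4 for Day 113, each from its own well, with no further treatment or genotype in any group. The wells belonged to 1 differentiation of 1 line, so the p-values measure the spread between wells only. No batch was labelled, and each day was its own collection, so day and collection cannot be told apart.

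Endothelin-1 is cut from its precursor in steps, the last of them by the membrane protease ECE1. The peptide acts on EDNRA, which couples to Gq and raises calcium in muscle cells, and on EDNRB, which in endothelium releases nitric oxide and clears the peptide. In the angiotensin system the secreted protein angiotensinogen is cut to angiotensin I, and ACE trims angiotensin I to angiotensin II. The AT1 receptor encoded by AGTR1 passes the signal to Gq. Liver is the main source of angiotensinogen in the body, and endothelium carries much of the ACE and makes much of the endothelin-1.

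The libraries held 24.1 to 34.5 M counts (M, units of 1000000). The cardiac troponin T gene TNNT2 was at 2260 to 5816 CPM (counts per 1000000 counts, after TMM scaling) in the 11 libraries, and the summed level of 10 cardiomyocyte markers was 23261 to 34300 CPM. Markers of other cells were also present. The sum of 16 endothelial markers was 99.5 to 149 CPM at Day 30, 60.1 to 99.8 CPM at Day 60 and 294 to 1092 CPM at Day 113. The sum of 12 liver and endoderm markers was 534 to 1566, 52.7 to 63.8 and 12.8 to 49.1 CPM on the same days. In these bulk libraries, fewer cells of a type and less RNA per cell cannot be told apart.

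The promoter sequences of EDN1 and ACE are shown because these genes took different courses over the culture, and because GENCODE v29 places no exon in either window. Each is the 250 bases before a transcript start in RefSeq, on the plus strand of GRCh38.p14, at chr6:12290111-12290360 and chr17:63476811-63477060. Capitals mark matches on either strand to 3 motifs searched by letters, GATAA (bound by GATA factors), TGACTAA (an AP-1-like site) and TATAAA (the TATA box). A search for the AP-1 consensus TGANTCA found no match in these windows. Other RefSeq windows of both genes are not shown. EDN1 windows 1 and 2 also held no exon bases, and ACE window 2 held 23, and none of the motifs was found in them.
EDN1: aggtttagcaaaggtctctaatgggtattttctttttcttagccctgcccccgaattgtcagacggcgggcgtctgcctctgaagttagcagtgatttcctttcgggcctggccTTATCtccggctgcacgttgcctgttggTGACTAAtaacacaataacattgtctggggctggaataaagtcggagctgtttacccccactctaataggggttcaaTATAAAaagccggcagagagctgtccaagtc
ACE: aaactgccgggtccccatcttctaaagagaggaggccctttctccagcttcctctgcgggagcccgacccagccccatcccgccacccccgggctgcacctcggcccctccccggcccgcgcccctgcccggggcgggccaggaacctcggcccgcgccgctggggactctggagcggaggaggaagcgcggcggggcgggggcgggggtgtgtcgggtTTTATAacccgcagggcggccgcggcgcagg

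The EDN1 window held GATAA on the minus strand from 136 bases, TGACTAA on the plus strand from 108 bases and TATAAA from 31 bases before the start. The ACE window held TATAAA alone, on the minus strand, from 31 bases before the start. No motifs overlapped. Among 35116 promoter windows of this length, 20.4% held GATAA, 1.62% held TGACTAA, 6.57% held TGANTCA and 10.7% held TATAAA. The G and C content was 49.2% for EDN1 and 75.2% for ACE. These matches describe the letters only.

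The first question was how the 7 genes moved from Day 30 to Day 60. EDN1, EDNRA, EDNRB and AGT fell, and no member passed the test in the other direction. These 4 of 7 stand beside 10.3% of all 19990 genes called in this comparison and 5.91% called lower (edgeR quasi-likelihood test, Benjamini-Hochberg adjusted p under 0.05 over all genes). No member had overlapping wells between these days, 6 being lower (14.1% of all genes) and ACE higher (10.7%), where 24.8% of all genes had none overlapping. The median log2 change of the members was -0.56, beside -0.01 over all genes. The members and the other lists were chosen with earlier results of these data known. Their shares, here and below, are therefore descriptions and not tests of the lists.

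From Day 60 to Day 113, EDN1, EDNRA and ACE rose and no member fell. These 3 of 7 stand beside 24.0% of all genes called, 12.9% higher and 11.1% lower. The wells of EDN1 and EDNRA did not overlap, both higher (16.2% of all genes, 30.6% in either direction). Between the first and last day ACE rose and EDNRB and AGTR1 fell, and the other 4 members did not pass the test. A share of 3 of 7 is near the 34.5% of all genes called in that comparison (17.3% higher, 17.2% lower). The wells of the same 3 genes did not overlap, beside 35.1% of all genes (17.1% higher, 18.0% lower). In the joint test over the 3 days 6 of 7 members changed, ECE1 being the exception (adjusted p 0.053), beside 37.1% of all genes. EDN1 and EDNRA were called lower at Day 60 and then higher at Day 113, a course called for 1.45% of all genes. No member was called higher in both intervals, as 1.02% of all genes were.

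**Figure D1:**
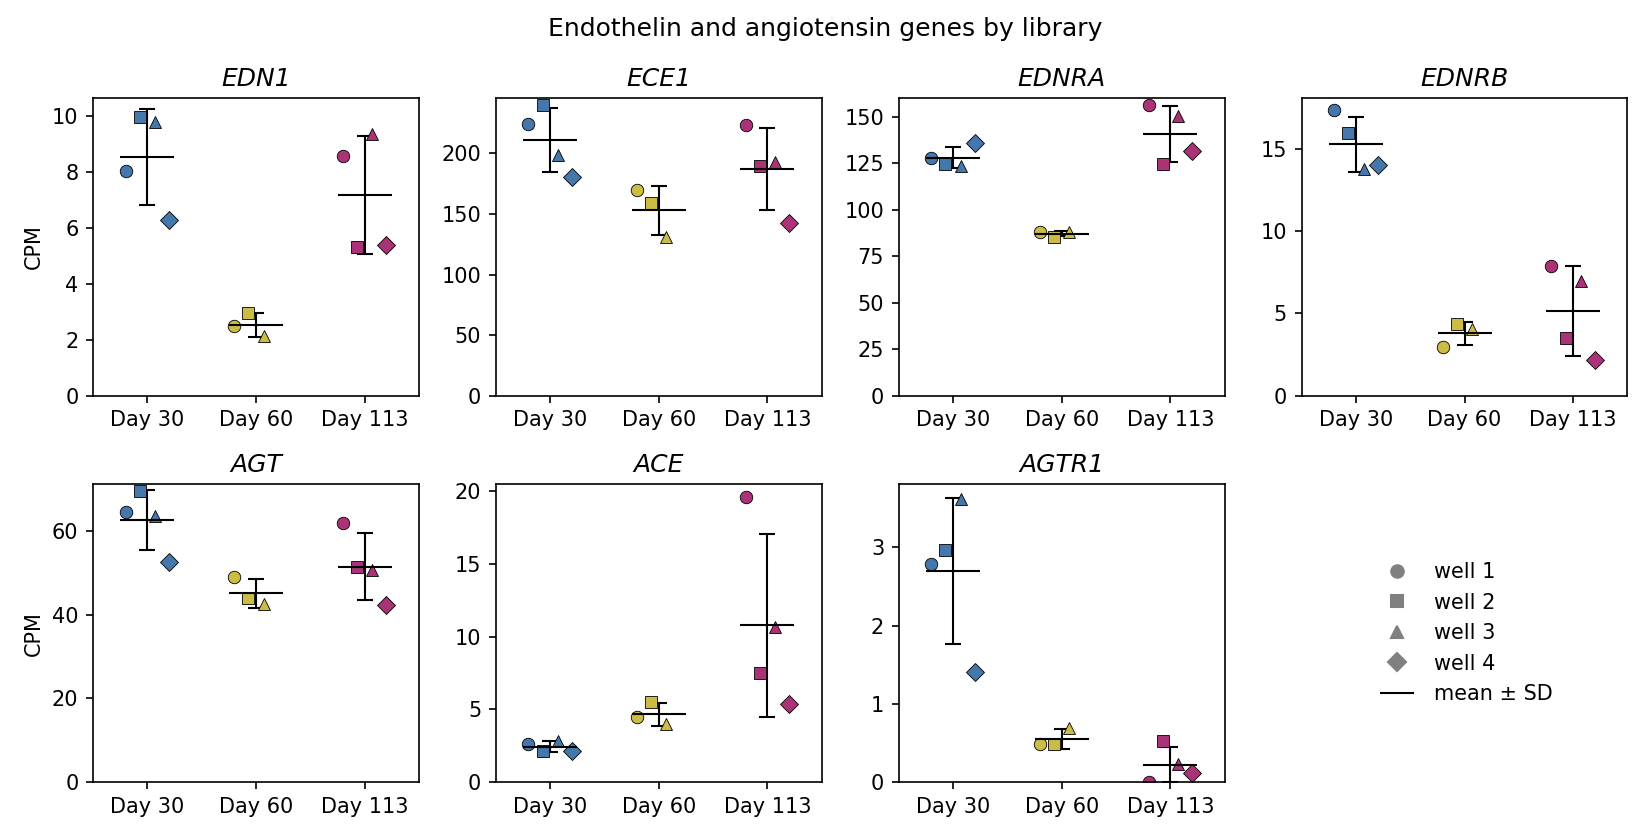
CPM of each of the 7 genes in the 11 libraries by day of culture, each panel with its own axis from 0; the marker gives the well number, and the bar and whiskers the mean and SD. All genes but ACE sit lower in every Day 60 well than in any Day 30 well, and ACE reaches 19.6 CPM in 1 Day 113 well.

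**Figure D2:**
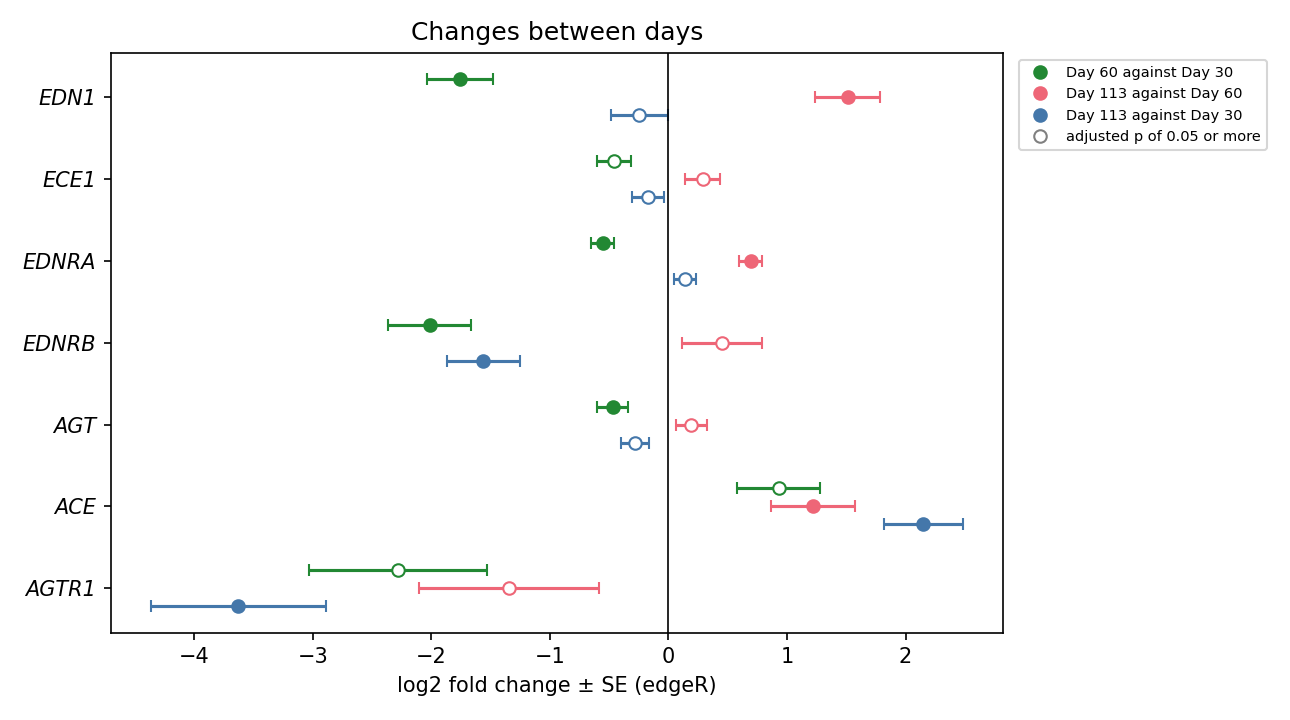
Log2 fold change of each gene in the 3 comparisons of days, with its SE from the edgeR fit; open circles did not reach an adjusted p under 0.05. The filled points on the right belong to EDN1, EDNRA and ACE, and the farthest point on the left is AGTR1 from Day 30 to Day 113.

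EDN1 (chromosome 6, 12290363 to 12297194, plus strand, GRCh38, GENCODE v29) encodes the endothelin-1 precursor. Its level was 8.02, 9.94, 9.77 and 6.29 CPM in the Day 30 wells 1 to 4, 2.49, 2.95 and 2.11 CPM in the Day 60 wells 1 to 3, and 8.57, 5.32, 9.36 and 5.38 CPM in the Day 113 wells 1 to 4. All Day 60 wells lay below all wells of both other days, while the Day 30 and Day 113 wells overlapped. The means were 8.51 ± 1.72 (SD, n = 4), 2.52 ± 0.418 (SD, n = 3) and 7.16 ± 2.11 CPM (SD, n = 4). EDN1 fell by 1.76 on the log2 scale from Day 30 to Day 60 (SE 0.28, adjusted p 7.3e-04). Its rise from Day 60 to Day 113 was 1.51 ± 0.27 (SE; adjusted p 0.0010). Day 113 against Day 30 gave -0.25 ± 0.24 (SE; adjusted p 0.47). The second change differed from the first, with a difference of 3.27 ± 0.51 (SE; adjusted p 0.0014), in a contrast where 9.34% of all genes were called (4.97% above 0 and 4.38% below).

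Other markers moved beside EDN1. The summed level of 10 fibroblast markers was 4517, 7713, 6801 and 3357 CPM in the Day 30 wells, 3576, 3268 and 2074 CPM in the Day 60 wells, and 13108, 6794, 11314 and 5459 CPM in the Day 113 wells. Most of it came from the collagen genes COL1A1, COL1A2 and COL3A1 (means 3076, 2112 and 3623 CPM at Day 113). Of the 10 genes, 1 was called higher and 3 lower to Day 60 (4.39% and 5.91% of all genes). From Day 60 to Day 113, 7 were called higher and 1 lower (12.9% and 11.1% of all genes). Wells 1 and 3 of Day 113, with the higher EDN1, were also those with the higher fibroblast sum and the deeper libraries (34.5 and 34.4 M counts against 27.0 and 24.1 M). The endothelial sum fell from a mean of 132 to 74.4 CPM and then stood at 611 CPM, so EDN1 was at about its Day 30 level in wells with more endothelial RNA. The part of these cells in the EDN1 values was not tested.

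ECE1 (chromosome 1, 21217247 to 21345572, minus strand) encodes the protease that releases the active peptide. It was at 224, 240, 199 and 180 CPM in the Day 30 wells, at 170, 159 and 131 CPM in the Day 60 wells, and at 224, 189, 193 and 142 CPM in the Day 113 wells. The Day 60 wells lay below all Day 30 wells and overlapped those of Day 113. Its changes were small: -0.46 ± 0.14 (SE; adjusted p 0.054), 0.29 ± 0.14 (SE; adjusted p 0.17) and -0.17 ± 0.13 (SE; adjusted p 0.35) on the log2 scale for Day 60 against Day 30, Day 113 against Day 60 and Day 113 against Day 30. The first of these sat at the threshold, since 9 of 21 alternative analyses of the counts called it. Among them were the fits without Day 30 replicate 4 (adjusted p 0.040), without Day 113 replicate 1 (0.030), replicate 2 (0.047) or replicate 4 (0.026), and over the 21 the adjusted p ran from 0.0022 to 0.27. Without Day 113 replicate 4 the second interval was also called (0.40, adjusted p 0.039).

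EDNRA (chromosome 4, 147480917 to 147544954, plus strand) encodes the receptor that carries most endothelin signalling in muscle. Its level was 128, 125, 123 and 136 CPM in the Day 30 wells, 87.9, 85.5 and 88.0 CPM in the Day 60 wells, and 157, 125, 151 and 132 CPM in the Day 113 wells. The Day 60 wells varied by an SD of 1.44 CPM around 87.1 (n = 3) and lay apart from both other days. EDNRA fell by 0.56 on the log2 scale to Day 60 (SE 0.10, adjusted p 0.0018) and rose by 0.69 ± 0.10 (SE; adjusted p 1.4e-04) to Day 113. Day 113 stood 0.14 ± 0.09 (SE; adjusted p 0.25) from Day 30. The difference between the intervals was 1.25 ± 0.18 (SE; adjusted p 8.3e-04).

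EDNRB (chromosome 13, 77895481 to 77975529, minus strand) encodes the receptor found on endothelium, glia and pigment cell precursors. It was at 17.3, 16.0, 13.8 and 14.0 CPM in the Day 30 wells, at 2.97, 4.35 and 4.04 CPM in the Day 60 wells, and at 7.91, 3.49, 6.96 and 2.17 CPM in the Day 113 wells. No later well reached a Day 30 well, and the Day 113 wells lay on both sides of the Day 60 range. EDNRB fell by 2.01 on the log2 scale to Day 60 (SE 0.35, adjusted p 0.0017), and Day 113 against Day 30 gave -1.56 ± 0.31 (SE; adjusted p 9.8e-04). The second interval gave 0.45 ± 0.34 (SE; adjusted p 0.37). The difference between the intervals was 2.46 ± 0.63 (SE; adjusted p 0.023), and it was lost without Day 60 replicate 1 (adjusted p 0.13), replicate 2 (0.051) or replicate 3 (0.085).

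Among markers of cells known to carry EDNRB, all 16 endothelial genes rose from Day 60 to Day 113, where EDNRB did not pass the test. In that comparison 12.9% of all genes were called higher. Among the Day 113 wells, EDNRB and the endothelial sum (1092, 517, 543 and 294 CPM in wells 1 to 4) had the same order, with well 1 highest, then wells 3, 2 and 4. The fibroblast sum and the library depths had this order too. The sum of 7 neural crest, glial and pigment cell markers was 137 to 171, 232 to 257 and 177 to 604 CPM at Days 30, 60 and 113. Over the whole course 3 of these 7 were called higher and 1 lower, beside 17.3% and 17.2% of all genes. The melanin synthesis genes DCT and TYR rose by 4.60 and 4.56 on the log2 scale from Day 30 to Day 113 (adjusted p 3.7e-05 and 2.8e-04). TFAP2A of the same list fell, from a mean of 12.6 CPM at Day 30 to 0.290 CPM at Day 113. The part of either cell type in the EDNRB values was not tested.

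The ratio of the 2 receptor genes removes what scales both within a library. The log2 ratio of EDNRA to EDNRB counts was 2.88, 2.96, 3.16 and 3.28 in the Day 30 wells, 4.88, 4.29 and 4.44 in the Day 60 wells, and 4.31, 5.16, 4.43 and 5.91 in the Day 113 wells. Both later days lay above all Day 30 wells, so that EDNRA counts went from 7.37 to 9.70 times those of EDNRB at Day 30 to 19.8 to 60.3 times at Day 113. The differences were 1.47 for Day 60 against Day 30 (two-sided exact permutation p 0.0571, the smallest that 3 wells against 4 allow) and 1.88 for Day 113 against Day 30 (exact permutation p 0.0286, the smallest for 4 against 4). Adjusted over the 6 ratio tests run, of which 3 are given here, both were 0.0857 and did not pass. With these smallest p-values no value adjusted over the 6 tests could be under 0.05. The failure to pass was thus fixed by the number of wells and says nothing about the ratio. Day 113 against Day 60 gave 0.41 (exact permutation p 0.40, adjusted 0.457), and 0.094 without Day 113 replicate 4.

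AGT (chromosome 1, 230702523 to 230714297, minus strand) encodes angiotensinogen, the protein from which all angiotensins are cut. Its level was 64.5, 69.5, 63.6 and 52.5 CPM in the Day 30 wells, 49.0, 43.9 and 42.4 CPM in the Day 60 wells, and 61.8, 51.3, 50.6 and 42.2 CPM in the Day 113 wells. The Day 60 wells lay below those of Day 30, and the Day 113 wells overlapped both. AGT fell by 0.47 on the log2 scale to Day 60 (SE 0.13, adjusted p 0.029). The other comparisons gave 0.19 ± 0.13 (SE; adjusted p 0.32) for the second interval and -0.28 ± 0.12 (SE; adjusted p 0.082) for the whole course. The call at Day 60 was lost without Day 30 replicate 1 (adjusted p 0.072), replicate 2 (0.12) or replicate 3 (0.071) and without Day 60 replicate 1 (0.056), replicate 2 (0.087) or replicate 3 (0.14). Over the whole course AGT was called lower without Day 30 replicate 4 (-0.36, adjusted p 0.038) or Day 113 replicate 1 (-0.38, adjusted p 0.019).

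Liver genes moved far more than AGT. All 12 liver and endoderm markers fell from Day 30 to Day 60 with a median log2 change of -4.70, and all 12 were lower at Day 113 than at Day 30 (median -6.16). Of all genes, 5.91% and 17.2% were called lower in these comparisons. The fetal albumin-like gene AFP fell by 8.43 on the log2 scale from Day 30 to Day 113 (adjusted p 1.2e-10), and the fibrinogen beta chain gene FGB fell by 7.45 (adjusted p 1.4e-07). In Day 113 well 1 the liver sum was 12.8 CPM, the lowest of all libraries, with 4 of the 12 genes at 0, while AGT was at 61.8 CPM there. At Day 30 well 4 had both the lowest liver sum (534 CPM against 1192 to 1566 CPM) and the lowest AGT. That well also had the lowest endothelial and fibroblast sums of Day 30 and the highest cardiomyocyte sum. The part of liver or endoderm cells in the AGT values was not tested.

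ACE (chromosome 17, 63477061 to 63498380, plus strand) encodes the enzyme that makes angiotensin II and also breaks down bradykinin. It was at 2.64, 2.13, 2.83 and 2.13 CPM in the Day 30 wells, at 4.44, 5.53 and 3.97 CPM in the Day 60 wells, and at 19.6, 7.50, 10.6 and 5.34 CPM in the Day 113 wells. Each well after Day 30 was above all Day 30 wells, and the Day 113 wells reached down into the Day 60 range. Between Day 30 and Day 113 ACE rose by 2.15 ± 0.33 on the log2 scale (SE; adjusted p 1.3e-04), which is 4.43-fold. The second interval gave a rise of 1.22 ± 0.35 (SE; adjusted p 0.020), and the first gave 0.93 ± 0.35 (SE; adjusted p 0.11). The difference between the intervals was 0.29 ± 0.62 (SE; adjusted p 0.83).

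The call of the second interval depended on single wells. It was lost without Day 60 replicate 1 (adjusted p 0.068), Day 60 replicate 3 (0.079) or Day 113 replicate 1 (0.76 on the log2 scale, adjusted p 0.074). Without Day 113 replicate 1 the first interval was called instead (0.93, adjusted p 0.037), and the difference between the intervals turned to -0.18 (adjusted p 0.87). The rise from Day 30 to Day 113 was called in all 21 alternative analyses of the counts, at 1.69 to 2.37.

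ACE and the endothelial markers were ordered alike among the Day 113 wells. The endothelial sum was 1092, 517, 543 and 294 CPM in wells 1 to 4, so well 1 led and well 4 was last for both. This order was not particular to endothelium. The fibroblast sum, the sum of 9 smooth muscle and pericyte markers and the library depths had it too. The von Willebrand factor gene VWF rose by 5.17 ± 0.68 (SE; adjusted p 2.7e-05) and the tight junction gene CLDN5 by 4.53 ± 0.47 (SE; adjusted p 3.0e-06) over the culture, and 14 of 16 endothelial markers were called higher, beside 17.3% of all genes. Among the Day 60 wells the endothelial sum was 63.4, 99.8 and 60.1 CPM, again in the order of ACE, with well 2 highest and well 3 lowest. At Day 30 the orders differed. Well 2 had the highest endothelial sum, with ACE at 2.13 CPM, while ACE was highest in well 3. Between days the sums at Day 60 were mostly under those of the Day 30 wells at 137, 149, 142 and 99.5 CPM, while ACE was above all Day 30 wells. The part of endothelial cells in the ACE values was not tested.

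**Figure D3:**
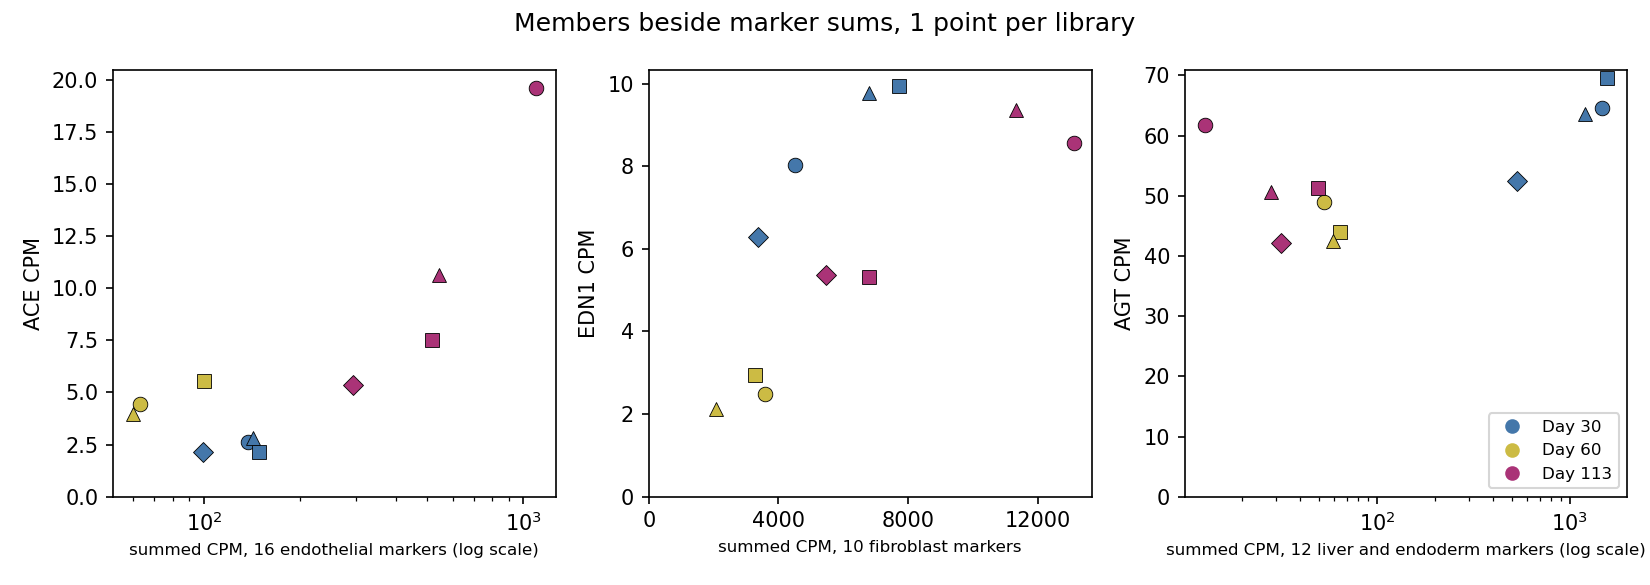
CPM of ACE, EDN1 and AGT (vertical axes, from 0) against the summed CPM of endothelial, fibroblast and liver markers, 1 point per library, coloured by day with the same marker shapes per well as in the plot of levels. The Day 113 wells run from 294 to 1092 CPM of endothelial markers and from 5.34 to 19.6 CPM of ACE, and AGT stays between 42.2 and 69.5 CPM while the liver sum runs from 12.8 to 1566 CPM. The fibroblast sum comes mostly from the collagen genes COL1A1, COL1A2 and COL3A1.

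AGTR1 (chromosome 3, 148697784 to 148743008, plus strand) encodes the AT1 receptor and had the fewest counts of the members. Its counts were 73, 89, 110 and 41 in the Day 30 wells, 15, 13 and 22 in the Day 60 wells, and 0, 14, 8 and 3 in the Day 113 wells. In CPM these were 2.79, 2.97, 3.62 and 1.41, then 0.479, 0.479 and 0.694, then 0, 0.525, 0.228 and 0.120. The 0 in Day 113 well 1 allows up to 0.0866 CPM (3 counts, counting error only), and well 4 held 3 counts. All later wells lay below all Day 30 wells.

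AGTR1 fell by 3.63 on the log2 scale from Day 30 to Day 113 (SE 0.74, adjusted p 0.0012), and it fell by 4.49 without Day 113 replicate 2 (adjusted p 4.6e-04). The first interval gave -2.28 ± 0.75 (SE; adjusted p 0.068) and the second -1.35 ± 0.76 (SE; adjusted p 0.22). Without Day 113 replicate 1 or replicate 2 the first interval was called (adjusted p 0.014 and 0.035), and without replicate 2 the second gave -2.21 (adjusted p 0.054). The difference between the intervals was 0.94 ± 1.35 (SE; adjusted p 0.73), and 0.076 without Day 113 replicate 2. The lowest Day 30 well for AGTR1, well 4, was also the lowest for the liver and endoderm sum. The same well was lowest at Day 30 for the endothelial and fibroblast sums and for EDN1, ECE1 and AGT. The part of any of these cells in the AGTR1 values was not tested.

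Levels were compared between genes after division by the length of their merged exons, in CPM per kb. At Day 30 EDNRA (30.2 ± 1.35, SD, n = 4), ECE1 (28.8 ± 3.63) and AGT (27.3 ± 3.13) led, and the wells of neighbours in this order overlapped. EDN1 (4.18 ± 0.844) and EDNRB (2.72 ± 0.303) followed, with overlapping wells, then AGTR1 (0.775 ± 0.267) and ACE (0.291 ± 0.0425), each apart from its neighbours. At Day 60 the same 3 genes led with overlapping wells at 19.7 to 20.9 CPM per kb, EDN1 stood at 1.24 ± 0.206, EDNRB (0.675 ± 0.129) and ACE (0.555 ± 0.0953) overlapped, and AGTR1 was last at 0.158 ± 0.0357 (SD, n = 3). At Day 113 EDNRA (33.3 ± 3.56, SD, n = 4) was followed by ECE1 (25.5 ± 4.59), AGT (22.5 ± 3.51), EDN1 (3.52 ± 1.04), ACE (1.29 ± 0.750), EDNRB (0.915 ± 0.489) and AGTR1 (0.0628 ± 0.0646). The wells of ACE and EDNRB overlapped there, as did those of the 3 leading genes in order. ACE thus moved from the last place of the 7 at Day 30 to the fifth at Day 113, and AGTR1 from the sixth to the last.

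**Figure D4:**
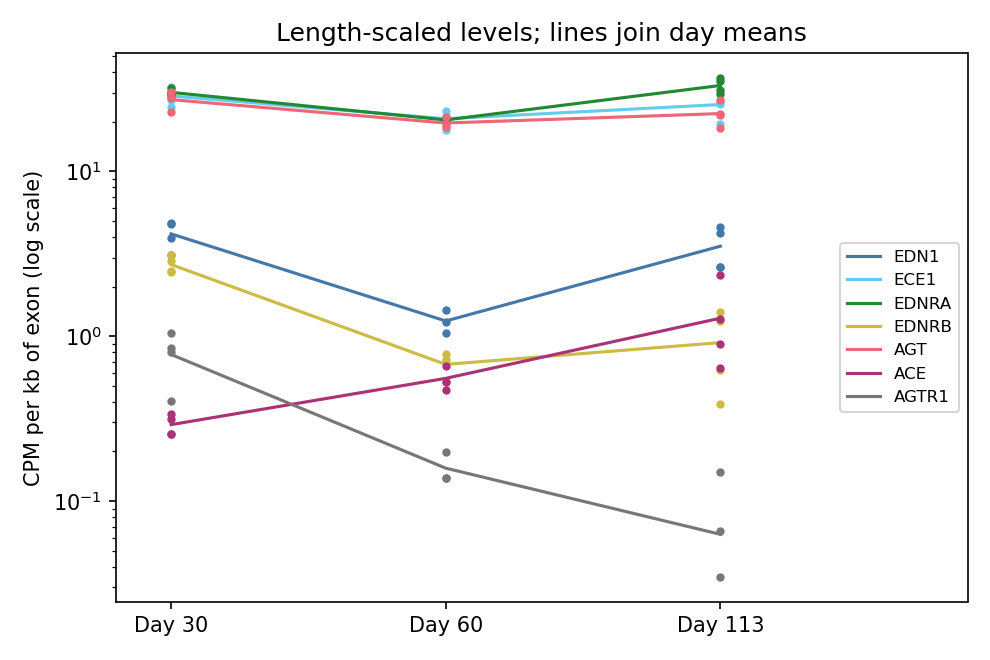
Level of each gene in CPM per kb of merged exon (log scale) by day; dots are wells and lines join the means. The AGTR1 well at 0 cannot be drawn on this scale and is left out. EDNRA, ECE1 and AGT stay at 17.8 or more in every well, and ACE and AGTR1 cross between Day 30 and Day 60.

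Exons of 4 members overlap other annotated genes, and the strand setting of the counting is not given in the sources used here, so reads of these partners cannot be told apart from those of the members. The overlap was 1997 bases of 8365 for ACE and 156 of 2291 for AGT, each with a gene annotated on the same strand, and 240 of 7333 for ECE1 and 80 of 5607 for EDNRB, each with a gene on the other strand. None of the partners was analysed here. The exons of EDN1, EDNRA and AGTR1 overlap no annotated gene.

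Other endothelin genes were mostly low. Of the 4 tested, 1 fell to Day 60 and 1 from Day 60 to Day 113, where 5.91% and 11.1% of all genes were called lower. At Day 113, 2 were lower than at Day 30, beside 17.2% of all genes. The 2 were MME, neprilysin, which degrades endothelins and converts angiotensin I, and EDN3, the ligand of EDNRB in neural crest. MME was at 15.8, 30.3, 31.7 and 15.0 CPM in the Day 30 wells, at 5.55, 7.48 and 5.39 CPM at Day 60, and at 6.84, 6.22, 10.5 and 5.13 CPM at Day 113, with all later wells below Day 30. It fell by 1.92 on the log2 scale to Day 60 (adjusted p 7.7e-04). EDN3 fell by 2.63 on the log2 scale from Day 30 to Day 113 (adjusted p 0.0053). EDN2 (0.691 to 3.70 CPM) and the endothelin-converting enzyme-like gene ECEL1 (1.63 to 4.57 CPM) did not pass the test in any pair of days. ECE2 and CMA1 were not analysed here.

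Among 10 other genes of the angiotensin system, 4 fell to Day 60, 2 rose from Day 60 to Day 113, and over the whole course 1 rose and 6 fell. The shares of all genes called in these directions were 5.91% lower, 12.9% higher, and 17.3% higher and 17.2% lower. The median log2 change of the 10 genes over the course was -0.39, beside -0.02 for all genes. ATP6AP2, an accessory subunit of the vacuolar proton pump, fell by 0.43 on the log2 scale and then rose by 0.45 (adjusted p 0.017 and 0.0064). Aminopeptidase A, ENPEP, which trims angiotensin II, fell by 0.73 on the log2 scale to Day 60 (adjusted p 0.013). The prolylcarboxypeptidase gene PRCP fell by 0.40 (adjusted p 0.028).

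The 6 genes lower at Day 113 than at Day 30 were peptidases, among them ENPEP, PRCP, PREP (-0.48, adjusted p 0.0016), NLN (-0.54, adjusted p 0.0087) and ANPEP, which was at 0 counts in 3 of the 4 Day 113 wells and at 0.262 CPM in the other. Thimet oligopeptidase, THOP1, which cuts angiotensin I to a shorter peptide, was the gene that rose. It was at 23.6 to 29.6 CPM at Day 30, 26.6 to 30.4 CPM at Day 60 and 36.8 to 55.8 CPM at Day 113, with the Day 113 wells apart, and its rise over the culture was 0.79 ± 0.13 (SE; adjusted p 2.0e-04). AGTRAP, which binds the AT1 receptor, and LNPEP, the angiotensin IV receptor peptidase, were not called in any pair of days. AGTR2, MAS1 and CTSG were not analysed here.

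Of 4 genes of aldosterone response, 2 rose and 1 fell to Day 60 and over the whole course. The shares of all genes called higher and lower were 4.39% and 5.91% to Day 60, and 17.3% and 17.2% over the course. NR3C2, the mineralocorticoid receptor, was 1.52 ± 0.22 (SE; adjusted p 6.5e-05) higher on the log2 scale at Day 113 than at Day 30. SGK1, a kinase induced through that receptor and by glucocorticoids, was at 3.33 to 5.97, 8.84 to 10.6 and 18.4 to 33.4 CPM on the 3 days, with no overlap, and its rise was 2.26 ± 0.22 (SE; adjusted p 1.4e-06). SCNN1A, an epithelial sodium channel subunit, fell by 4.88 on the log2 scale (adjusted p 8.2e-04). Its Day 113 wells 1 to 4 held 0, 16, 1 and 1 counts, so the size of this fall is uncertain. Of 3 kinin genes, the carboxypeptidase gene CPM was lower at Day 113 than at Day 30 (-1.17, adjusted p 0.016), beside 17.2% of all genes, and none rose.

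Of 23 genes of the Gq pathway and its regulators, 3 rose and 1 fell to Day 60, 5 rose and 2 fell from Day 60 to Day 113, and 3 rose and 2 fell over the whole course, beside 10.3%, 24.0% and 34.5% of all genes called in either direction. The log2 rise over the course was 0.95 ± 0.11 (SE; adjusted p 9.3e-06) for the receptor kinase gene GRK5 and 0.70 ± 0.15 (SE; adjusted p 0.0016) for the phospholipase gene PLCB4. RGS4, which shortens Gq signals, fell by 1.61 on the log2 scale (adjusted p 8.1e-04), and the protein kinase C gene PRKCA fell by 0.44 (adjusted p 0.0066).

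Of 13 genes known to be induced by endothelin-1 or angiotensin II in cultured heart cells, 7 fell and 1 rose to Day 60, where 5.91% and 4.39% of all genes were called. From Day 60 to Day 113, 6 rose and 1 fell, beside 12.9% and 11.1% of all genes. The median log2 change was -0.80 in the first interval and 0.26 in the second. Over the whole course 4 rose and 4 fell, beside 17.3% and 17.2% of all genes. The atrial natriuretic peptide gene NPPA rose by 2.31 ± 0.21 on the log2 scale (SE; adjusted p 6.6e-07) and MYC by 1.23 ± 0.40 (SE; adjusted p 0.027). The stress-induced factor ATF3 fell by 1.57 on the log2 scale (adjusted p 9.0e-05) and FOS fell by 1.18 (adjusted p 0.0048). These genes also answer to many other signals, and they share the Day 60 wells with the changes of EDN1 and EDNRA.

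**Figure D5:**
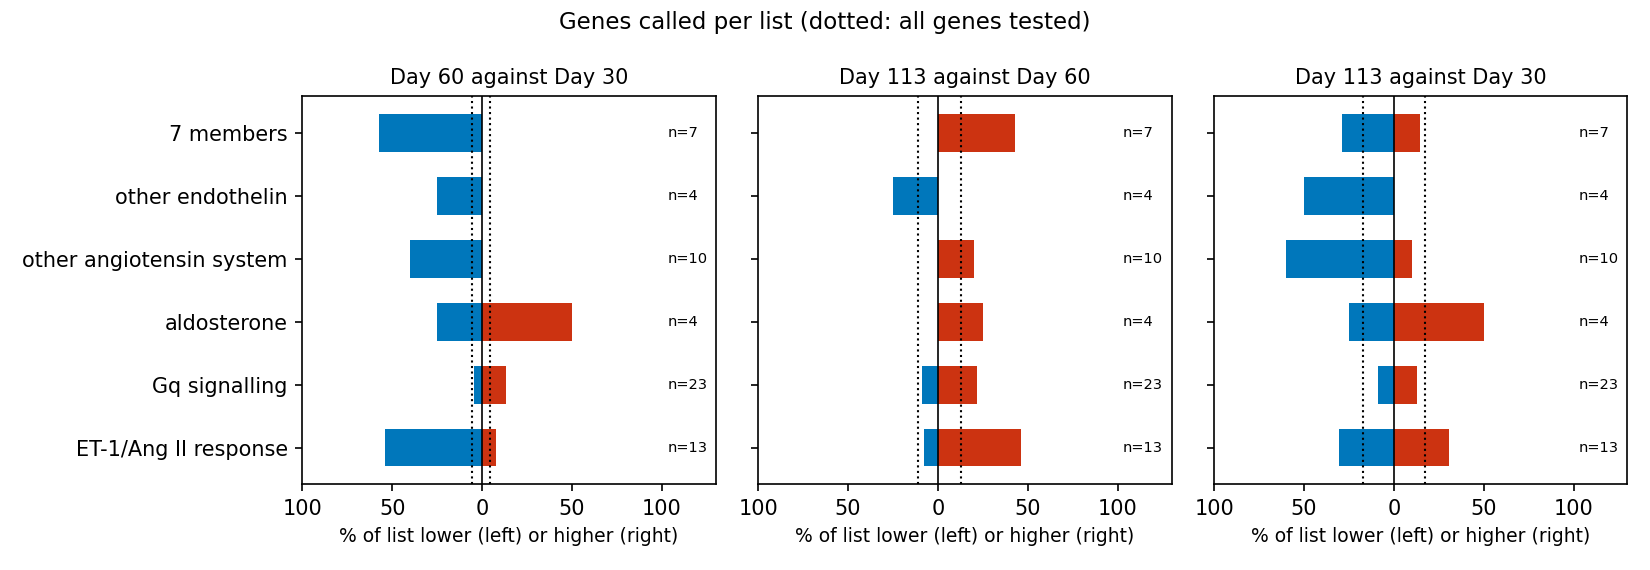
Share of each list called higher (right) or lower (left) in the 3 comparisons of days, with the number of genes tested in each list; dotted lines mark the same shares over all 19990 genes. The 13 response genes show 7 lower at Day 60 and 6 higher at Day 113 against Day 60, and the 10 other angiotensin system genes show 6 lower over the whole course.

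For each member the 3 genes with the most similar pattern were found by Pearson's r of log2 CPM over the 11 libraries, among genes with a mean of at least 5 CPM. This is a description, and the libraries share days and depth. EDN1 was most like MXRA5 (r 0.96), IQGAP2 (0.96) and TTC9 (0.95), all with their lowest mean at Day 60. ECE1 was most like DOK1 (0.97), the basement membrane collagen gene COL4A2 (0.97) and the collagen chaperone gene SERPINH1 (0.96). EDNRA was most like NDOR1 (0.97), the growth factor gene TGFB3 (0.95) and the guidance receptor gene ROBO1 (0.94).

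EDNRB was most like the interleukin-4 receptor gene IL4R (0.98), SLIT3 (0.97) and CEMIP2 (0.96). IL4R went from 39.4 ± 7.34 CPM (SD, n = 4) at Day 30 to 8.76 ± 0.917 (SD, n = 3) and 9.86 ± 4.86 CPM (SD, n = 4). AGT was most like SERINC3 (0.97), the protein disulfide isomerase gene P4HB (0.95) and ALDH18A1 (0.94). ACE was most like THBS4 (0.97), PLSCR4 (0.97) and MAMLD1 (0.96). AGTR1 was most like the epithelial cadherin gene CDH1 (0.97), the epithelial integrin gene ITGB4 (0.97) and PLPPR3 (0.97), and CDH1 went from 69.2 ± 26.3 CPM (SD, n = 4) at Day 30 to 7.68 ± 1.49 (SD, n = 3) and 4.75 ± 5.46 CPM (SD, n = 4). The r values of AGTR1 lean on Day 113 wells of 0, 14, 8 and 3 counts. The well at 0 stood at -5.89 in log2 CPM, a value set by the prior count.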

How the data were processed

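Poly(A) RNA of 11 wells was measured. The authors deposited whole-number read counts per gene symbol, and the tools STAR 2.5.3a and featureCounts 2.0.3 and the build hg38 are named in the submitters' processing notes, with no counting options. The authors also deposited TPM values, whose ratio to the counts differs between libraries for the same gene. TPM therefore entered as an alternative only.

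Genes were tested with edgeR 4.0.16 (quasi-likelihood, R 4.3.3), with TMM scaling, filterByExpr at a minimum count of 10 (no gene removed of 19990) and all 11 libraries in 1 fit with day as the factor. P-values were adjusted by Benjamini-Hochberg over 19990 genes, and the threshold was 0.05. The SE of a log2 fold change was taken from its F statistic, as its size over the root of F. Ratios used counts with a pseudocount of 0.5 and two-sided exact permutation tests (SciPy 1.17.1). Alternatives used DESeq2 1.42.0, limma 3.58.1, other scalings and filters, a replicate block, and each well left out. Tested on simulated data for Day 113 against Day 30 over 19990 genes, the fit recovered 67 of 100 2-fold and 84 of 100 4-fold changes, called 10 unchanged genes, and called 0 where nothing was changed.

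Coordinates and exon lengths come from GENCODE v29 (GRCh38, of which hg38 is another name), promoters from RefSeq. All 7 members passed the filter, and also a CPM of at least 1 in at least 3 libraries. AGTR1 met the second rule only through its Day 30 wells, as no later well was above 0.694 CPM, so passing it lends no support to the fall of AGTR1. The rule named all members, the other endothelin and angiotensin system genes, and, of each other list, the 2 highest and 2 lowest called log2 changes from Day 30 to Day 113 whose higher day had a mean of 1 CPM or more, and the 3 most similar genes of each member. Some results under this rule are not reported here. The members and lists were chosen with earlier results of these data known.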

Additional observations from a re-analysis of the deposited data

Results flagged for a closer look

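The change from Day 60 to Day 113 differed from the change from Day 30 to Day 60 for 3 of the 7 genes when the difference itself was tested (edgeR, adjusted p under 0.05), beside 9.34% of all genes. The difference, in log2 units, was 3.27 for EDN1, 1.25 for EDNRA and 2.46 for EDNRB. Both intervals share the Day 60 wells, so each value also says how far Day 60 lay below the mean of the other days. The value of EDNRB lost its call without each Day 60 well in turn, and those of EDN1 and EDNRA held under all 19 alternative analyses of the counts. No well stood apart from its group by Dixon's criterion in the 18 groups of 4 wells examined (7 genes and 2 ratios at Days 30 and 113).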

How the results depend on the processing

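Of 574 values of the 7 genes under alternatives run on the counts, 531 kept their direction and side of the threshold, 26 gained a call, 15 lost one and 2 changed sign. The 2 were differences between the intervals: ACE at -0.18 without Day 113 replicate 1 (-0.18 to 0.57 with any 1 well left out), and AGTR1 at -0.040 under limma-voom. The cause was not tested. The numbers of genes called in the 3 pairs of days, the joint test and the interval test were 937, 2545, 4552, 4800 and 618 at an adjusted p under 0.01, in place of 2060, 4790, 6889, 7411 and 1868. Limma on log2(TPM + 1) called 0 genes in each, with 1168, 1201, 1440, 1262 and 1012 at an unadjusted p under 0.05. Leaving out 1 well each gave 1220 to 2618, 3317 to 4735, 5657 to 6977, 6360 to 7427 and 643 to 2221 genes. The first count moved most without Day 30 replicate 2 (1323), Day 60 replicate 1 (1259) or Day 60 replicate 3 (1220), and the last without Day 60 replicate 1 (643) or replicate 3 (774).

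Under log2(TPM + 1) the sign turned for EDNRB (1.08) and ACE (-0.82) at Day 60 against Day 30, for EDNRA (-0.72) and EDNRB (-0.99) at Day 113 against Day 60, for EDN1 (0.48), EDNRA (-1.03) and EDNRB (0.089) over the whole course, and for EDNRA (-0.40), EDNRB (-2.07) and AGTR1 (-0.042) in the interval difference. From TPM the EDNRA to EDNRB ratio gave -1.93 and -0.65 against Day 30. No gene was called by limma on log2(TPM + 1), so the turned signs of single genes belong to changes that did not pass. The TPM values scale the same gene differently between libraries, and the part of this in the turns was not tested.

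The labels do not say that a well number marks anything shared between days. Same-numbered wells of different days correlated at 0.0014 to 0.29 in their deviations from the day means, over 0.1 in 8 of 10 pairs, and 8 of 11 wells correlated best with their own number. This is a hint of pairing from the data, short of the criterion of over 0.1 in every pair, so the numbers were not used as a block in the reported tests. With the replicate block 2474, 4954, 7143, 7775 and 2366 genes were called, ECE1 was called in the first interval (-0.56, adjusted p 0.0022) and the second (0.38, adjusted p 0.013), and AGT over the whole course (-0.29, adjusted p 0.023). The interval differences of ECE1 (0.94) and AGT (0.82) were also called. AGTR1 had 25 counts in all at Day 113, so its values for that day rest on few reads.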

Other observations

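Genes of other cell types changed through the culture beside the 7 genes. Their counts stand beside 17.3% of all genes called higher and 17.2% called lower from Day 30 to Day 113. Of 9 smooth muscle and pericyte markers tested, 5 were higher at Day 113 than at Day 30 and none was lower, led by PDGFRB (2.25 on the log2 scale, adjusted p 2.2e-05) and ABCC9 (1.91, adjusted p 4.1e-06). Of 10 fibroblast markers, 6 rose and 2 fell over the course. THY1 rose by 3.00 (adjusted p 5.4e-07) and FAP by 3.01 (adjusted p 0.0019), while PDGFRA fell by 2.15 on the log2 scale (adjusted p 3.6e-08) and LUM fell by 1.27 (adjusted p 2.4e-04).

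Of 8 epicardial and mesothelial markers, 3 rose and 3 fell from Day 30 to Day 113, beside 17.3% and 17.2% of all genes. WT1 rose by 3.07 (adjusted p 1.3e-08) and ITLN1 by 2.76 (adjusted p 1.9e-04), while BNC1 fell by 1.79 on the log2 scale (adjusted p 0.011) and LRRN4 fell by 1.41 (adjusted p 5.7e-07). Of 7 neural crest, glial and pigment cell markers, 3 rose and 1 fell. DCT, an enzyme of melanin synthesis, was at 2.60 to 6.75 CPM at Day 30, 38.7 to 58.6 CPM at Day 60, and 11.7, 102, 244 and 100 CPM in the Day 113 wells 1 to 4. TYR rose by 4.56 (adjusted p 2.8e-04), and TFAP2A fell by 5.45 on the log2 scale (adjusted p 6.3e-06). Of the 10 cardiomyocyte markers 3 rose, among them TNNI3 (1.93, adjusted p 5.3e-08) and TNNT2 (0.66, adjusted p 0.0032), and 1 fell, ACTN2 (-0.64, adjusted p 4.0e-04).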
